A study of Mus musculus with 10 samples.

Results

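The matrix metalloproteinases and their tissue inhibitors were followed in the inguinal white adipose tissue (iWAT) of male C57BL/6 mice. The set was chosen by name, as Mmp and Timp genes expressed in fat, and holds 10 genes of the 51826 listed in the count tables: the metalloproteinases Mmp2, Mmp3, Mmp9, Mmp12, Mmp14 and Mmp19, which are 6 of the 23 listed Mmp genes, and the inhibitors Timp1, Timp2, Timp3 and Timp4, which are all 4 listed Timp genes. RNA-seq libraries of rRNA-depleted RNA were compared in 4 groups. The F0 groups were 2 males fed a control diet (CD) and 2 males fed a low-protein diet (LPD) from weaning, 10–12 weeks old. The F1 groups were 3 sons of CD-fed fathers and 3 sons of LPD-fed fathers (pLPD offspring), 5 weeks old, which ate CD themselves and had CD-fed mothers. No group carried a transgene or deletion. The question in F0 was the effect of the diet on the animal that ate it, and in F1 the effect of a diet that only the father ate. The whole depot was used, so that fewer cells of a type and less RNA per cell cannot be told apart.

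Matrix metalloproteinases (MMPs) are zinc-dependent endopeptidases that are made as inactive proforms and cleave collagens, fibronectin, elastin and other proteins around the cell. Tissue inhibitors of metalloproteinases (TIMPs) bind the active site of these enzymes and block it. In fat depots the balance of both is known to accompany the remodelling of the matrix around adipocytes as they grow, and the enzymes come mainly from stromal cells and macrophages.

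Between 6351075 and 10044546 reads per library fell on exons, and 3 reads, below which a gene could not be told from absent, corresponded to 0.299 to 0.472 counts per 1000000 (CPM; this floor covers counting error only). Intron reads made up 36.0% to 37.5% of the reads on protein-coding genes in the sons of CD fathers and 40.7% to 48.4% in the pLPD offspring, without overlap, and 36.3% to 37.9% in the F0 libraries. Of the 10 adipocyte markers, none passed the test of edgeR in F1 (1 lower at an unadjusted p below 0.05) and 1 was lower in F0 (Retn, −0.78, edgeR adjusted p = 0.0234), with Adipoq, Plin1 and Lep short of the threshold in both. The 10 markers summed to between 18425 and 25253 CPM in every library.

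Read per kilobase of exon, the inhibitor Timp2 stood at the top of the 10 genes in every group, and Mmp2 was the leading protease. In the sons of CD fathers Timp2 held 83.9 ± 7.89 CPM per kb (mean ± SD, n = 3) and Mmp2, which cleaves gelatin and type IV collagen, 51.0 ± 2.83, with no overlap between them. Mmp14, an enzyme anchored in the cell membrane, and Timp3, the inhibitor that binds to the matrix, followed at 25.6 ± 5.37 and 25.4 ± 5.12 CPM per kb, and their ranges overlapped. Mmp19 came next at 16.7 ± 1.11, then Mmp3 at 11.2 ± 0.635 and Timp4 at 8.06 ± 2.21 CPM per kb, of which the last pair overlapped. Mmp9 held 2.37 ± 0.329 CPM per kb. At the bottom stood Timp1, with 2 to 12 exon reads per library over all 10 libraries, and Mmp12, with 2 to 5 in the F1 libraries. In the CD-fed F0 males Timp2 held 118 ± 4.49 CPM per kb (n = 2), followed by Timp3 with 52.7 ± 10.7 and Mmp2 with 47.9 ± 0.646, which overlapped, and by Timp4 with 26.7 ± 4.80 CPM per kb.

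**Figure D1:**
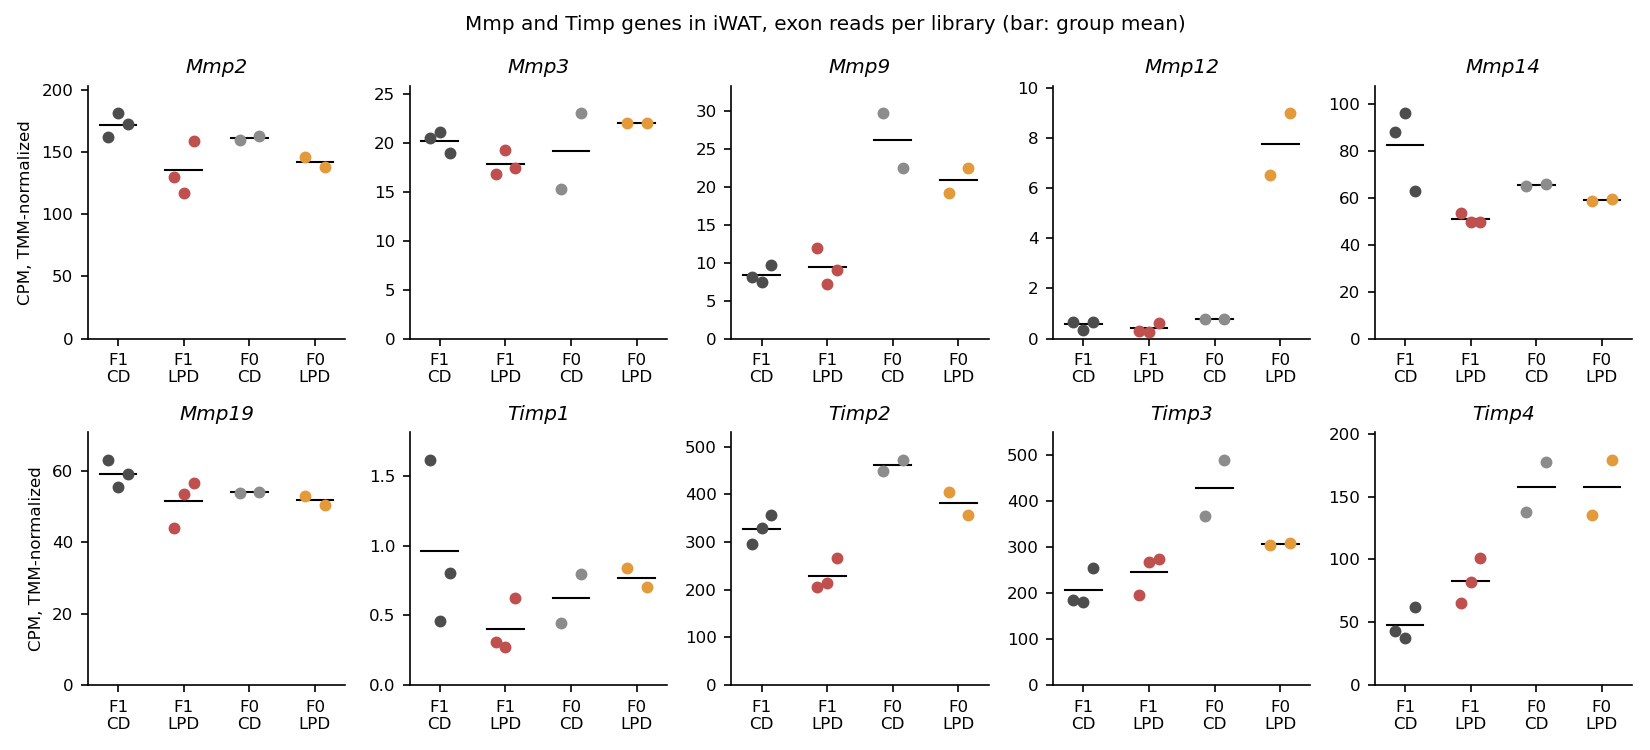
Normalized exon reads (CPM, linear axis from 0, own scale in each panel) of the 10 genes in each of the 10 libraries, with points for single mice and a bar for the group mean. Mmp12 stood between 6.51 and 9.01 CPM in the LPD-fed F0 males and at or below 0.799 in the other libraries, and the Mmp14 points of pLPD offspring lay below those of the sons of CD fathers.

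Not all of these reads belonged to a gene without doubt. Of the exon reads, 13.7% for Timp3, 35.0% for Mmp19, 41.9% for Timp4 and 71.4% for Timp1 were counted as matching that gene alone, against 96.0% for Mmp3 and 100% for the other members. Timp1, Timp3 and Timp4 lie within the synapsin genes Syn1, Syn3 and Syn2, on the opposite strand, and Mmp19 overlaps Tmem198b on the opposite strand. The kit kept the strand, but whether the counting used it is not stated, so that reads of the gene pairs could not be told apart. Total exon reads of the partners were 7 to 56 per library for Syn3 against 1274 to 4911 for Timp3, 84 to 217 for Syn2 against 317 to 1778 for Timp4, and 65 to 170 for Tmem198b against 288 to 541 for Mmp19. Syn1, with 5 to 16 reads, had as many as Timp1. Timp2 shares its strand and span with Cep295nl, which had 27 to 88 exon reads per library, none of them unique to it.

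Among the sons, Mmp14 was the member that passed the threshold of edgeR for the father's diet, and it was down-regulated. Timp2 (edgeR adjusted p = 0.0573) and Timp4 (edgeR adjusted p = 0.0628) fell just short of it, also without overlap of the groups. The call therefore does not set Mmp14 apart from these genes. Mmp14 (ENSMUSG00000000957, chr14:54431612-54441265 of mm10, plus strand) encodes MT1-MMP, which cleaves fibrillar collagen at the cell surface and activates the proform of the Mmp2 enzyme. The 3 sons of CD fathers had 87.8, 96.3 and 63.0 CPM, and the 3 pLPD offspring had 53.6, 50.3 and 49.7 CPM. Every pLPD value lay below every control value, and the control mouse nearest to them was replicate 3. The log2 fold change was −0.69 ± 0.14 (SE; 0.621-fold), with an adjusted p of 0.0448 in edgeR's quasi-likelihood test over 14049 genes. The exact two-sided permutation test of this gene alone gave p = 0.1, the smallest that 3 mice against 3 allow. The call held without replicate 3 of the CD fathers' sons (−0.85, edgeR adjusted p = 0.000792) and was lost without any other single library (−0.72 to −0.56, edgeR adjusted p from 0.0866 to 0.197), and with the exon share of the library as a covariate (−0.75, edgeR adjusted p = 0.510). The share of exon reads differed between the paternal groups, and its part in the result was not tested.

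Mmp2 (chr8:92827291-92853420), the secreted gelatinase that Mmp14 activates, showed a smaller difference that did not pass the test. It stood at 162, 181 and 172 CPM in the sons of CD fathers and at 131, 119 and 158 CPM in pLPD offspring. The groups did not overlap, with pLPD replicate 3 close to the controls. The log2 fold change was −0.34 ± 0.11, with an adjusted p of 0.164 (edgeR). The other gelatinase, Mmp9 (chr2:164940780-164955850), had 8.08, 7.41 and 9.67 CPM against 12.0, 7.30 and 9.03. Its groups overlapped, and the log2 fold change of 0.17 ± 0.23 had an edgeR adjusted p of 0.779. The stromelysin Mmp3 (chr9:7445822-7455975), which cleaves fibronectin, laminin and proteoglycans, differed by −0.17 ± 0.13 (20.5, 21.2 and 18.9 against 16.9, 19.6 and 17.4 CPM), with overlapping groups. Mmp19 (chr10:128790910-128800824), which cleaves basement membrane proteins, differed by −0.19 ± 0.11 (63.1, 55.4 and 59.0 against 44.2, 54.4 and 56.5 CPM), also with overlap. The macrophage elastase Mmp12 (chr9:7344381-7369499) was below the read filter in the sons, with 5, 3 and 5 reads against 2, 2 and 4.

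No inhibitor passed the threshold in the sons. Timp2 (chr11:118301069-118355740, minus strand), which also takes part with Mmp14 in the activation of pro-Mmp2, had 295, 329 and 356 CPM in the sons of CD fathers and 206, 217 and 266 CPM in pLPD offspring. All pLPD values were below all control values, by −0.51 ± 0.11 on the log2 scale (edgeR adjusted p = 0.0573). Timp4 (chr6:115241892-115252205, minus strand), an inhibitor known to be abundant in adipose tissue and heart, had 42.7, 37.5 and 62.2 CPM in the sons of CD fathers and 65.7, 83.7 and 101 CPM in pLPD offspring. Here all pLPD values were above all control values, although control replicate 3 came close to pLPD replicate 1. The log2 fold change was 0.82 ± 0.19 (1.76-fold, edgeR adjusted p = 0.0628). Timp3 (chr10:86300372-86349506) had 184, 180 and 254 CPM against 196, 272 and 274, with overlap (0.26 ± 0.15, edgeR adjusted p = 0.460). Timp1 (chrX:20870166-20874735), the inhibitor usually induced in inflamed tissue, had 12, 4 and 6 reads against 2, 2 and 4, too few for a test or a fold.

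Of the 10 members, 8 passed the read filter in F1. Of these, 1 was down-regulated and 0 were up-regulated at the threshold of edgeR, beside 1.02% and 0.142% of the 14049 genes tested. At an unadjusted p below 0.05, 3 members were lower (Mmp2, Mmp14 and Timp2) and 1 was higher (Timp4), beside 8.76% and 6.57% of all genes tested. The same 3 genes, and Timp4 in the other direction, were those of the 8 whose groups did not overlap, which held for 10.3% of all genes tested in the lower and 9.78% in the higher direction. DESeq2, used in place of edgeR, called 3 members: Mmp14 and Timp2 lower and Timp4 higher. The share of all genes that DESeq2 called is not given here, so this count has no background beside it. The median log2 fold change of the 8 was −0.18, against 0.01 over all genes tested.

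**Figure D2:**
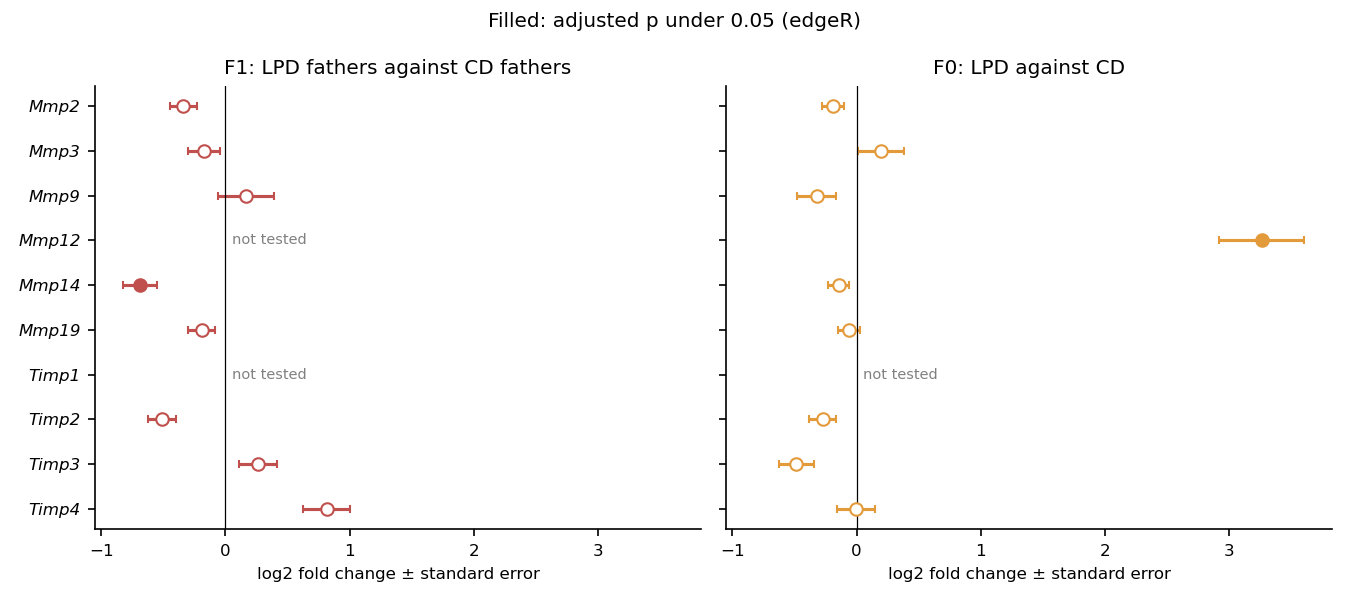
Log2 fold change with its standard error for each member, in the sons (left, LPD against CD fathers) and in the F0 males (right, LPD against CD), on one linear axis. Filled points passed an adjusted p of 0.05: Mmp14 at −0.69 in F1 and Mmp12 at 3.27 in F0.

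The composition of the inhibitors followed from these values. Per kilobase of exon, Timp2 made up 68.2% to 74.4% of the summed Timp level in the sons of CD fathers and 53.8% to 59.8% in the pLPD group, and Timp4 made up 5.61% to 7.87% against 12.6% to 14.3%. The paternal groups did not overlap in either share, nor in that of Timp3 (19.5% to 23.3% against 27.2% to 32.2%). The shares are parts of the same sum, so a lower Timp2 level by itself raises the others. The Timp3 level itself overlapped between the groups (edgeR adjusted p = 0.460). The ratio of the summed Timp to the summed Mmp level overlapped, at 1.0 to 1.33 in the sons of CD fathers and 1.09 to 1.32 in the pLPD group. These sums take the deposited total exon reads, so the limit on the Timp3 and Timp4 reads given above holds for them.

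**Figure D3:**
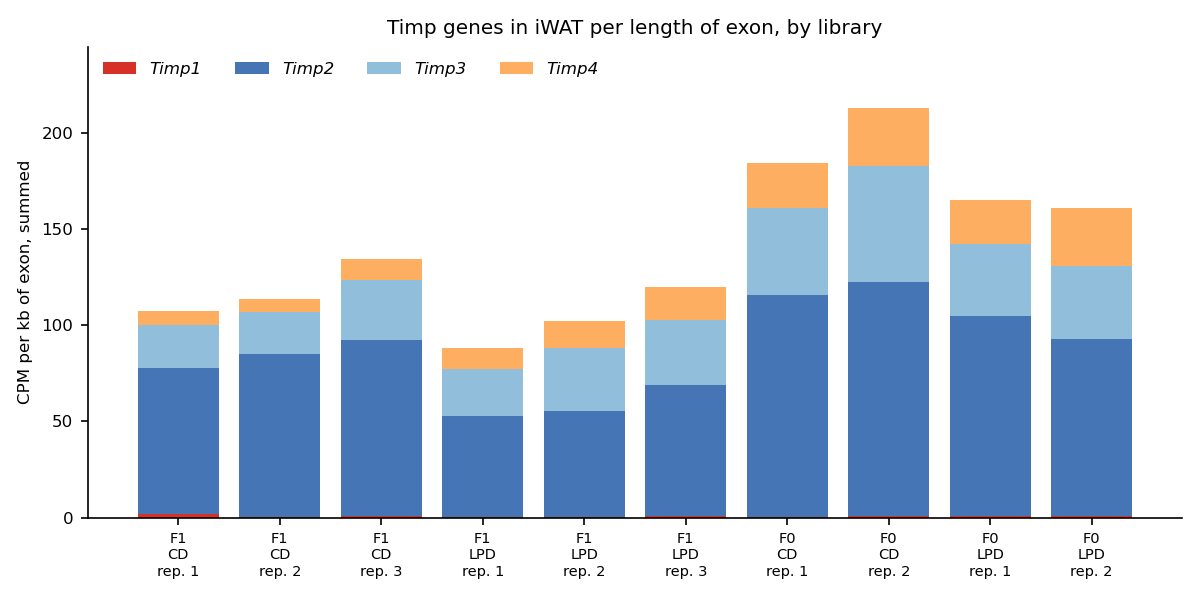
Stacked level of the 4 Timp genes per library, in CPM per kilobase of exon, with 1 bar per mouse from 0. The summed level was 88.1 to 134 in the F1 libraries and 161 to 213 in the F0 libraries, and Timp1 is hardly visible in any bar.

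Reads on introns, which come largely from unspliced RNA, were tested in the same way. Of the members, 6 passed the filter in F1, and none passed the threshold of edgeR, beside 0.26% of 13456 genes called lower. At an unadjusted p below 0.05, 2 members were lower (Mmp14 and Timp2), beside 8.17% of all genes; the other tool was not run on introns. Intron reads of Mmp14 numbered 87, 116 and 87 in the sons of CD fathers and 38, 61 and 47 in pLPD offspring, without overlap. After normalization the log2 fold change was −0.86 ± 0.20 (edgeR adjusted p = 0.0852), and it did not differ detectably from that of the exons (difference −0.19 ± 0.21, edgeR adjusted p = 0.895). For Timp2 the intron change was −0.35 ± 0.11 (edgeR adjusted p = 0.180) and differed from the exon change by 0.15 ± 0.11 (edgeR adjusted p = 0.810). In this test of introns against exons, no member passed in F1, beside 0.0415% of 12035 genes called lower, and the smallest unadjusted p was that of Timp3 (0.00717, edgeR). None of the intron reads of Timp3, Timp4 or Mmp19 matched that gene alone, so their intron values may hold reads of other genes.

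The promoter of Mmp14, the gene called by edgeR in F1, is shown beside that of Timp2. Timp2 acts with Mmp14 on pro-Mmp2 and fell just short of the threshold. RefSeq start sites were matched for 7 of the 10 members, with 8 promoters in all; Mmp2, Mmp9 and Mmp19 were not matched. The search covered 250 bases before to 50 after each start, on both strands, for GGGCGG (the GC box bound by Sp1), TGAGTCA (the AP-1 site) and TATAAA (the TATA box). GGGCGG was found in 35.7% of 32851 RefSeq promoters of mouse, TGAGTCA in 5.20% and TATAAA in 13.6%. The windows below run from 150 bases before to 30 after the start in GRCm38.p6, the assembly that mm10 names. Mmp14 lies at chr14:54431448-54431627 on the plus strand and Timp2 at chr11:118355382-118355561 on the minus strand, and capitals mark GGGCGG.
Mmp14: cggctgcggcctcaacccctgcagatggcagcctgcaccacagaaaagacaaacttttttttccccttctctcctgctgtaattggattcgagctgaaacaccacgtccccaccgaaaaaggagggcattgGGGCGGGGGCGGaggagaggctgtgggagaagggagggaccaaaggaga
Timp2: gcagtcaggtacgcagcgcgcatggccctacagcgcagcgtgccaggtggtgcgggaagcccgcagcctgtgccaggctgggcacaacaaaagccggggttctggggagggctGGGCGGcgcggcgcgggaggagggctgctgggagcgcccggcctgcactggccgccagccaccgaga
The Mmp14 copies begin 19 and 13 bases before the start, and the Timp2 copy 37 bases before it. Neither promoter held TGAGTCA or TATAAA. The promoters of Timp1 and Timp3 also held GGGCGG, and that of Timp4 held none of the 3 motifs. These are matches of letters only, and binding was not measured.

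Among the lists of genes around the proteases, matrix substrates, the longest of them, had the most calls in the sons. The lists were chosen with earlier results of these data known, so their order is not independent of these data. Of 22 listed matrix substrates, all tested, 3 were down-regulated and 0 up-regulated in pLPD offspring (edgeR), beside 1.02% and 0.142% of all genes tested. The median log2 fold change was −0.24, with 19 of 22 negative. At an unadjusted p below 0.05, 10 were lower and 0 higher, beside 8.76% and 6.57% of all genes tested. Fn1, which encodes fibronectin, fell from 996–1228 to 525–735 CPM (log2 fold change −0.80 ± 0.13, edgeR adjusted p = 0.0196). Eln, which encodes elastin, fell by 0.95 ± 0.19 on the log2 scale and Col1a2, a chain of type I collagen, by 0.87 ± 0.18. Col1a1 and Col3a1, the listed collagens with most reads, had −0.96 ± 0.21 (edgeR adjusted p = 0.0512) and −0.60 ± 0.18 (edgeR adjusted p = 0.130). Of the 8 tested other inhibitors and clearance genes, 1 was lower: Pcolce, which enhances the trimming of procollagen, at −0.60 ± 0.13 (edgeR adjusted p = 0.0489). None passed in edgeR among 8 protease activators (2 lower at an unadjusted p below 0.05), 18 ADAM and ADAMTS genes (7 lower), 11 AP-1 and cytokine genes (1 lower, 1 higher), or the 8 tested of the 17 other Mmp genes (1 lower, 1 higher). In the latter, Mmp28 had 0.46 ± 0.12 (edgeR adjusted p = 0.0996) and Mmp15, another membrane-type enzyme, −0.53 ± 0.17 (edgeR adjusted p = 0.164). Furin, the convertase that activates pro-Mmp14, had −0.48 ± 0.11 (edgeR adjusted p = 0.0703).

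Macrophage markers were the cell type list with most calls, and these lists too were chosen with earlier results of these data known. Of the 9 tested, 6 were down-regulated in pLPD offspring, among them Adgre1 (−0.64) and Csf1r (−0.54), and 0 were up-regulated. At an unadjusted p below 0.05 (edgeR) 9 were lower and 0 higher. Over all genes tested in F1, edgeR called 1.02% lower and 0.142% higher. At an unadjusted p below 0.05 it had 8.76% lower and 6.57% higher. All 9 of 9 macrophage markers were negative, with a median log2 fold change of −0.64. Their summed level lay at 1141 to 1418 CPM with CD fathers and at 791 to 923 CPM with LPD fathers. The list of lipid-associated macrophages did not go the same way. Of its 8 tested markers none was called by edgeR (1 lower and 0 higher at an unadjusted p below 0.05). Of the 8, 3 were positive and 5 negative (median −0.06). The sum of this list was 4159 to 4469 CPM with CD fathers and 4799 to 5306 with LPD fathers, and was not shown to measure these cells. Of 10 markers of fibroblasts and progenitors, 1 was lower by edgeR (Fbln1), and 7 were lower and 0 higher at an unadjusted p below 0.05. Of these markers 9 of 10 were negative (median −0.33), with summed levels of 1379 to 1731 and 1216 to 1564 CPM. Endothelial markers were negative in 10 of 10 cases, with none called by edgeR (4 lower at an unadjusted p below 0.05, median −0.36), and their sums overlapped, at 714 to 978 and 615 to 778 CPM. Markers of B and T lymphocytes were positive in 10 of 10 cases, with none called by edgeR (5 higher at an unadjusted p below 0.05, median 0.26), and sums of 472 to 557 and 518 to 692 CPM. Of 5 tested epithelial markers 3 were lower (Krt19, Krt18 and Krt8), with sums of 17.6 to 23.5 against 2.76 to 6.34 CPM. Krt8 had 17, 30 and 24 reads against 0, 4 and 0, and Krt18 had 34, 16 and 27 against 0, 0 and 2. Both passed the filter on low counts through the sons of CD fathers, the group in which they were high. The part of any of these cell types in the Mmp14 result was not tested.

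**Figure D4:**
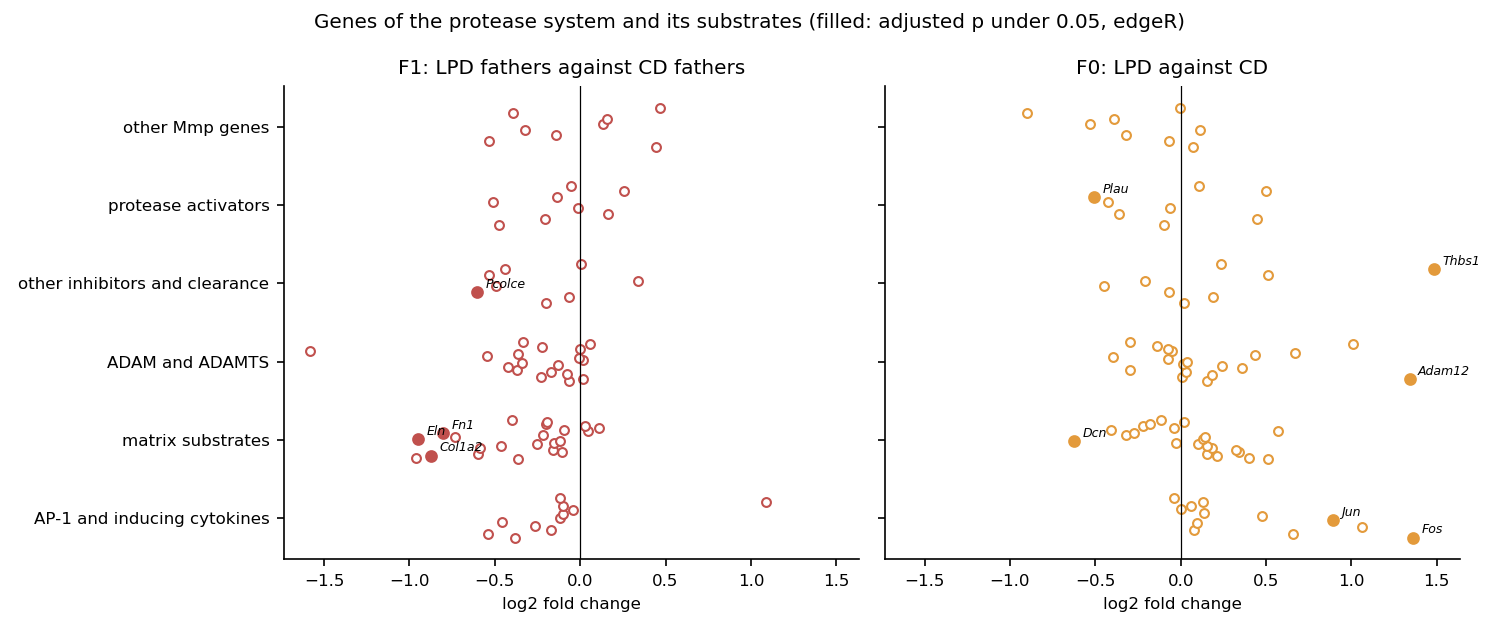
Log2 fold changes of the listed genes around the proteases, 1 point per tested gene, in the sons (left) and the F0 males (right) on one linear axis; height within a row separates the points only. Filled and named points passed an adjusted p of 0.05: Eln, Fn1, Col1a2 and Pcolce lower in F1, and in F0 Thbs1, Adam12, Jun and Fos higher and Plau and Dcn lower.

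In the F0 males, Mmp12 was the member that changed with the diet, and it was up-regulated. Mmp12 (ENSMUSG00000049723, plus strand) encodes the macrophage elastase, which cleaves elastin. The 2 CD-fed males had 7 and 8 exon reads, or 0.781 and 0.798 CPM, and the 2 LPD-fed males had 62 and 77 reads, or 6.51 and 8.97 CPM. Both LPD-fed males stood far above both CD-fed males, whose reads were few but above the floor of 3. The log2 fold change was 3.27 ± 0.34 (9.62-fold, 95% interval 2.60 to 3.94), with an adjusted p of 0.00501 (edgeR). Mmp12 passed the filter on low counts through the group in which it was high, and with no filter it was called as well (3.27). The exact permutation test could not give less than 0.333 with 2 mice against 2. The call held in DESeq2 (3.29) and in the fit on log2 RPKM (2.02). It also held without each library in turn (3.02 to 3.48), where a group of 1 mouse was assumed to vary like the other group. Introns of Mmp12 had 0 and 3 reads against 9 and 2, too few for a test. All of its exon reads matched that gene alone.

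The remaining enzymes of the F0 males did not pass the test. Mmp2 had 159 and 163 CPM with CD and 145 and 137 with LPD, lower in both LPD-fed males by −0.19 ± 0.09 on the log2 scale (edgeR adjusted p = 0.348). Mmp14 had 65.0 and 65.7 CPM against 58.8 and 59.4, again lower in both (−0.15 ± 0.08, edgeR adjusted p = 0.458). Its 95% interval ran from −0.31 to 0.02. Mmp9 had 29.7 and 22.5 CPM against 19.2 and 22.5 (−0.32 ± 0.16), so that a mouse of each diet stood at nearly the same level. Mmp19 had 53.6 and 54.0 CPM against 52.8 and 50.3 (−0.06 ± 0.09). Mmp3 had 15.3 and 23.0 CPM against 22.1 and 22.0 (0.20 ± 0.18). The Mmp3 values of the LPD-fed males lay between those of the CD-fed males.

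Among the inhibitors of the F0 males, Timp3 showed the largest difference and also missed the threshold. It had 366 and 489.9 CPM in the CD-fed and 304 and 308 CPM in the LPD-fed males. Both LPD values were lower, and the CD-fed males lay far apart. The log2 fold change was −0.48 ± 0.14 (edgeR adjusted p = 0.120). In uniquely matching reads alone, 457 and 682 reads stood against 318 and 324, and the change was −0.75 ± 0.14 with an edgeR adjusted p of 0.0287. Timp2 had 446 and 472 CPM against 404 and 356 (−0.27 ± 0.11, edgeR adjusted p = 0.269), without overlap. Timp4 had 137 and 177 CPM against 135 and 179, with overlap, and its interval ran from −0.31 to 0.30. Timp1 had 4 and 8 reads against 8 and 6 and was not tested.

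Of the 10 members, 9 passed the read filter in F0. Of the 9, 1 was up-regulated and 0 were down-regulated by edgeR, beside 1.18% and 1.32% of the 14581 genes tested. At an unadjusted p below 0.05, 2 members were lower (Timp2 and Timp3), beside 8.2% of all genes tested, and DESeq2 called none of the members lower. Groups did not overlap in the lower direction for 6 of the 9 (Mmp2, Mmp9, Mmp14, Mmp19, Timp2 and Timp3) and in the higher direction for Mmp12, beside 23.5% and 23% of all genes tested. For Mmp9 the gap was below the rounding used here, and on the scale of all 10 libraries its groups overlapped, which leaves 5. The median log2 fold change of the 9 was −0.15, against 0.00 over all genes tested.

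In the intron reads of the F0 males tested alone, Mmp2 was the member called by edgeR. Its intron reads numbered 216 and 221 in the CD-fed and 102 and 104 in the LPD-fed males, so that every LPD value was below every CD value. The intron log2 fold change was −0.99 ± 0.14 (edgeR adjusted p = 0.00468), the 1 member called of 7 tested, beside 2.12% of 14334 genes called lower. Introns held 13.1% and 11.9% of the gene's reads with CD and 6.86% and 8.11% with LPD, while the F1 libraries lay between 7.0% and 9.08%. Tested against the exon reads of the same libraries, the intron change of Mmp2 was lower by −0.81 ± 0.15 (edgeR adjusted p = 2.88e-04). That of Timp3 was higher by 0.53 ± 0.10 (edgeR adjusted p = 5.66e-04), with an intron share of 22.3% and 20.0% against 27.6% and 27.3%. These were the 2 members called of 7 tested, beside 2.51% of 12694 genes called lower and 1.42% called higher. The test rests on 4 libraries, none of the Timp3 intron reads matched that gene alone, and all of the Mmp2 intron reads did.

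**Figure D5:**
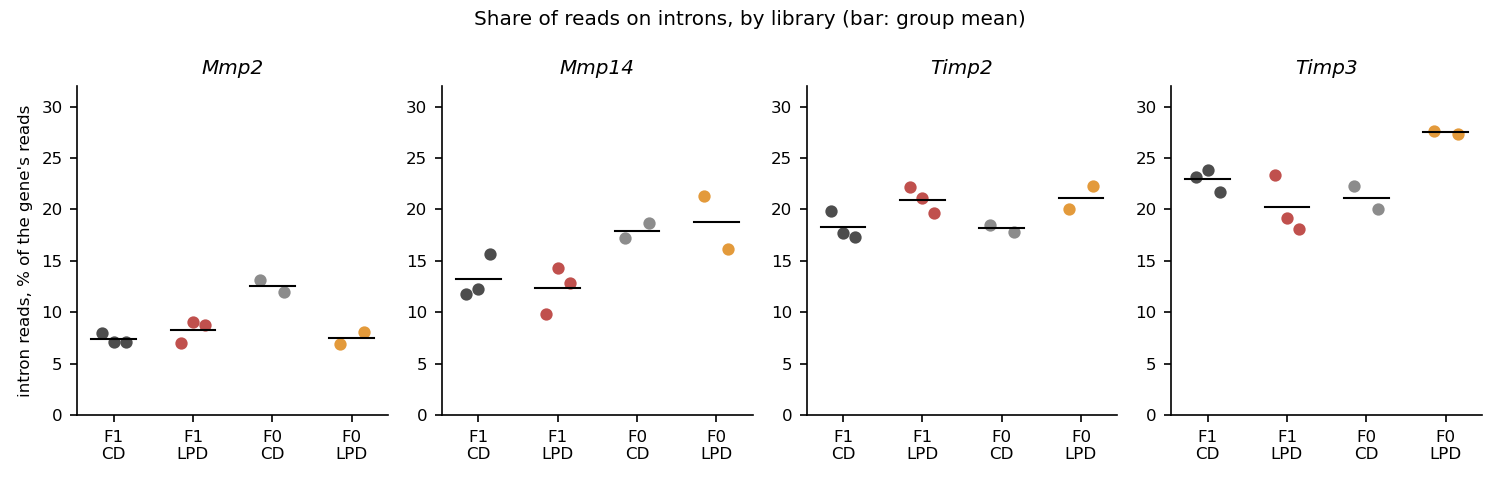
Intron reads as a percentage of all reads on the gene (linear axis from 0, common to the panels) for 4 members in each library, with a bar for the group mean. The CD-fed F0 males stand apart in Mmp2, at 11.9% and 13.1%, and the LPD-fed F0 males in Timp3, at 27.3% and 27.6%.

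The Mmp12 promoter is shown with that of Mmp3, another gene of the cluster of Mmp genes on chromosome 9. The pair was picked because both held the letters of AP-1, the dimer of Jun and Fos proteins. Capitals mark TGAGTCA and TATAAA. Mmp12 has a pair of RefSeq promoters, of which the downstream start is shown, at chr9:7347224-7347403, and Mmp3 lies at chr9:7445672-7445851, both on the plus strand of GRCm38.p6.
Mmp12: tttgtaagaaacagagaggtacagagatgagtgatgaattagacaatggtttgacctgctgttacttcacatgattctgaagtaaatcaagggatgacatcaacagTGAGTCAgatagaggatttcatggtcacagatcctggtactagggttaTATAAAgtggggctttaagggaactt
Mmp3: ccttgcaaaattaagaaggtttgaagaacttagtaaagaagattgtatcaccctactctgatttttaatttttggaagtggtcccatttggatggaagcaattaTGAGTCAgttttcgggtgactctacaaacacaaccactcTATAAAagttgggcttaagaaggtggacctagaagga
TGAGTCA begins 44 bases before the start of Mmp12 and 46 bases before that of Mmp3. TATAAA begins 7 bases before the start of Mmp3 and at base 5 past the start of Mmp12. Whether these letters act as a TATA box at the listed starts was not tested. The upstream Mmp12 promoter held none of the 3 motifs, and TGAGTCA was in none of the promoters of the other 5 matched members. The F0 change was 3.27 for Mmp12 and 0.20 for Mmp3 on the log2 scale, and what bound either promoter was not measured.

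Genes around the proteases changed in F0 as follows. Over all 14581 genes tested, edgeR called 1.18% higher and 1.32% lower. Of 12 tested AP-1 and cytokine genes, 2 were up-regulated and 0 down-regulated by the LPD (edgeR), and 11 of 12 were positive (median 0.13). Jun rose from 43.5–44.6 to 79.2–84.1 CPM (0.89 ± 0.09, edgeR adjusted p = 0.00373) and Fos from 4.19–4.80 to 9.66–13.5 CPM (1.36 ± 0.23, edgeR adjusted p = 0.0243). Of 8 other inhibitors and clearance genes, 1 was up-regulated: Thbs1, which encodes thrombospondin-1, rose from 21.3–21.9 to 47.3–73.7 CPM (1.48 ± 0.19, edgeR adjusted p = 0.0110). Of 8 protease activators 1 was lower: Plau, which encodes urokinase, from 51.9–55.5 to 35.3–40.2 CPM (−0.51 ± 0.10, edgeR adjusted p = 0.0406). Of 19 ADAM and ADAMTS genes 1 was higher, Adam12 (1.34 ± 0.26, edgeR adjusted p = 0.0373). Of 22 matrix substrates 1 was lower, the proteoglycan Dcn (−0.62 ± 0.13, edgeR adjusted p = 0.0439), and 13 of 22 were positive (median 0.12). None of the 8 tested other Mmp genes passed in edgeR, with 1 lower at an unadjusted p below 0.05.

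No macrophage marker was up-regulated beside Mmp12. Of 9 tested, 0 were higher by edgeR, also at an unadjusted p below 0.05, and 1 was down-regulated (Cd163, −0.47), and their sum was 1148 to 1212 CPM with CD and 1054 to 1129 with LPD. Among 10 markers of lipid-associated macrophages none passed in edgeR (2 higher and 1 lower at an unadjusted p below 0.05), with 7 of 10 positive. Trem2 had 0.85, Gpnmb 0.07 and Cd9 −0.33, and the sum of the list was 5319 to 5697 CPM with CD and 4355 to 4589 with LPD. Trem2 had 12 to 23 exon reads per F0 library, Gpnmb 198 to 294 and Cd9 154 to 211. Nearly all of the sum therefore came from other genes of the list, and it was not shown to measure these cells. Neutrophils are a known source of Mmp9, and their markers summed to 5.59 to 6.80 against 7.98 to 8.85 CPM, with Ly6g and Camp at 3 reads or fewer in every library. Skeletal muscle markers fell in 6 of 10 cases (edgeR), beside 1.32% of all genes tested. They were negative in 10 of 10, with sums of 1737 to 2702 CPM with CD and 818 to 1141 with LPD. Of 10 markers of fibroblasts and progenitors, 1 was lower by edgeR. At an unadjusted p below 0.05, 3 were lower and 1 higher, beside 8.2% of all genes lower and 1098 of 14581 higher. Of these markers, 8 of 10 were negative (median −0.21), with sums of 1913 to 2091 CPM with CD and 1641 to 1700 with LPD. The part of muscle RNA, or of fibroblasts and progenitors, in the values of the F0 members was not tested.

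Whether the diet acted differently in F0 and F1 was tested with all 10 libraries together, as an interaction term. For Mmp12 the F0 effect exceeded the F1 effect by 3.74 ± 0.74 on the log2 scale (edgeR adjusted p = 0.0306), the 1 member called of 9 tested, beside 0.893% of 15111 genes called higher and 0.357% called lower. At an unadjusted p below 0.05 (edgeR), Mmp14 was also higher and Timp3 and Timp4 were lower, beside 1145 genes higher and 742 lower of the 15111. DESeq2 called Mmp12 as well. Its F1 side rests on 2 to 5 reads per library, below the filter of the F1 fit, and Mmp12 entered the fit of all libraries through the LPD-fed F0 males. With no filter the difference was 3.75 and called. The call was lost without any 1 of 6 of the libraries (edgeR adjusted p up to 0.169), among them each F0 library, and with the exon share as a covariate (3.35, edgeR adjusted p = 0.155). For Mmp14 the effects differed by 0.55 ± 0.20 (edgeR adjusted p = 0.234), for Timp4 by −0.81 ± 0.30 (edgeR adjusted p = 0.251) and for Timp3 by −0.74 ± 0.25 (edgeR adjusted p = 0.197). The F1 change of Mmp14 was therefore not shown to differ from that in F0.

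Between the control groups, several members stood at different levels. In the CD-fed F0 males compared with the sons of CD fathers, 4 of 9 tested members were higher and 0 lower (edgeR), beside 8.78% and 10.1% of the 15111 genes tested; DESeq2 also called 4. Timp4 was higher by 1.73 ± 0.21 on the log2 scale (edgeR adjusted p = 1.47e-04), Mmp9 by 1.64 ± 0.20 (1.52e-04), Timp3 by 1.06 ± 0.17 (0.00115) and Timp2 by 0.49 ± 0.12 (0.0128). Mmp14 had −0.33 ± 0.14 (edgeR adjusted p = 0.111) and was the member lower at an unadjusted p below 0.05, beside 2595 of the 15111 genes. Mmp2 had −0.09 ± 0.11. The ratio of summed Timp to summed Mmp levels per kilobase was 1.84 and 2.06 in the CD-fed F0 males and 1.0 to 1.33 in the sons of CD fathers. Of the 22 matrix substrates, 11 were lower and 1 higher in the F0 controls (median −0.47). Skeletal muscle markers, all 10 higher in the F0 controls, summed to 1737 to 2702 CPM there and to 103 to 202 in the sons of the CD group, and their part in the Timp4 level was not tested. Age, generation and the set of libraries coincide in this comparison and cannot be told apart.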

How the data were processed

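Exon, intron and uniquely matching read counts per gene were taken as deposited. They are the authors' counts from CLC Genomics Workbench on mm10, without normalization. The RPKM values as deposited by the authors were used in 1 alternative, with 0.1 added before log2, and the TPM values that the authors deposited were not used. The total exon counts were tested in R 4.3.3 with edgeR 4.0.16 (filterByExpr, TMM, quasi-likelihood F test, two-sided, Benjamini-Hochberg over all genes tested, threshold 0.05), with a fit for each generation and a fit of all 10 libraries for the interaction and the controls. Standard errors were derived as log2 fold change over the root of F. CPM are TMM-normalized. The intron reads were tested alone, and also against the exon reads with the library as a block, a test chosen after the intron reads were seen. Each fit was tested on simulated counts. The members and gene lists were chosen with earlier results of these data known. Text names were taken by rule: the members, their overlapping genes with at least 10 exon reads, the genes of the pathway lists past the threshold (at most 4 per list) and the 2 with most reads, and the first 3 of each cell type list. Retn, Fbln1, Cd163, Ly6g, Camp and Krt19 were named after their values were seen. Itgam was not analysed here. Of the other inhibitors and clearance genes, 1 is not reported here and was left out of the list's counts. The F1 mice of a group had different mothers, as the study describes them. It does not state whether they also had different fathers, the animals that received the diet. For F0 mice no source says whether the mothers differed, and p-values measure the spread between these samples. Promoters are RefSeq, GRCm38.p6.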

Additional observations from a re-analysis of the deposited data

Results flagged for a closer look

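Mmp12 was marked because its diet effect differed between the generations by a test of the difference itself: 3.74 on the log2 scale, higher in F0 (edgeR adjusted p = 0.0306). Both LPD-fed F0 males lay above both CD-fed F0 males, while all F1 libraries held 2 to 5 reads. It passed the filter on low counts through the LPD-fed F0 males. The call was lost without 6 of the 10 libraries, each left out alone, and with the exon share as a covariate (3.35, edgeR adjusted p = 0.155).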

How the results depend on the processing

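Counts of members past the threshold were 1 in F1, 1 in F0, 1 in the interaction and 4 between the controls. For the alternatives that follow, the share of all genes called is not given, so their counts have no background beside them. In F1 the count was 3 in DESeq2, 4 with no filter on low counts, 2 in uniquely matching reads, 0 with the exon share as a covariate, 2 with all 4 groups in 1 fit, and 0 to 2 without each library in turn. In F0 it was 2 with no filter and 2 in uniquely matching reads, with Timp3 added in both. In the interaction it was 4 with no filter, 0 with the exon share, and 0 to 4 without each library in turn, the 4 without replicate 3 of the CD fathers' sons. The controls gave 3 to 5 without each library in turn. With a block for the replicate number, the counts were 3 in F1, 2 in F0 and 2 in the interaction; deviations of same-numbered mice correlated by at most 0.0736, so the numbers were not taken as pairs. The values that changed sign were no larger than 0.20 in either direction in the reported fits. With the exon share, F1 Mmp9 was −0.47, F1 Mmp19 0.0875, F0 Timp4 0.37 and the interaction of Mmp19 −0.0337. F1 Mmp9 was −0.0121 on RPKM, and F0 Timp4 was 0.0240 in all reads of the gene. Without each library in turn, F1 Mmp9 ranged from −0.0389 to 0.33, F0 Timp4 from −0.22 to 0.20, F0 Mmp3 from −0.0636 to 0.53 and the Mmp3 difference of the controls from −0.40 to 0.20. The causes were not tested. With 2 mice a group in F0, and few reads on Timp1 and Mmp12, smaller changes could not be seen.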
